A study of Mus musculus with 6 samples.

Results

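The genes described here belong to the hormone-producing cells of the gut epithelium: the peptide hormone genes Pyy, Insl5 and Gcg, the serotonin synthesis gene Tph1, the secretory granule genes Chga and Chgb, the processing genes Cpe and Scg5, and the transcription factor genes Neurod1 and Rfx6. They were chosen by name, with earlier results of these data known, and all 10 were found among the 23725 genes of the deposited table. RNA came from colonic epithelial cells enriched on a Percoll gradient from C57BL/6J mice, with 3 wild-type libraries and 3 libraries of the genotype B6-Cg-Nr3c1-Vil-Cre/ERT2 (Nr3c1IEC-/-), called knockout here. Libraries are called WT1 to WT3 and KO1 to KO3, with numbers that serve only as names and pair nothing. Nr3c1 encodes the glucocorticoid receptor, and the villin promoter directs the tamoxifen-activated Cre to intestinal epithelium. Both groups received tamoxifen on 5 consecutive days, and cells were taken on day 7 after the first injection. The age of the mice is not given in the labels, nor is the deleted exon or whether the wild-type mice carried the Cre transgene, so an effect of Cre with tamoxifen and an effect of receptor loss cannot be told apart. The labels do not say that libraries came from separate mice, so p-values measure the spread between these libraries.

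Enteroendocrine cells are scattered singly among the absorptive and goblet cells of the colon and release hormones from dense-core granules. L cells make peptide YY (Pyy), which slows transit and restrains appetite, insulin-like peptide 5 (Insl5) and proglucagon (Gcg), the precursor of the glucagon-like peptides, and in the colon one L cell can make all of them. Enterochromaffin cells make serotonin, for which Tph1 encodes the rate-limiting hydroxylase. Peptide hormones are cut from precursors by prohormone convertases, and carboxypeptidase E (Cpe) then trims the basic residues left at the cut.

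The epithelial label was borne out by its markers: all 8 epithelial markers were abundant in every library, led by the keratin gene Krt8 with 130835 ± 11965 normalized reads in wild type and 130853 ± 12181 in knockout (mean ± SD, n = 3 libraries). A normalized read is a gene count that the authors divided by the library's size factor, and recovered reads numbered 10089313 to 12030844 per library. Nr3c1 itself was 1120, 967 and 197 normalized reads in WT1, WT2 and WT3, and 145, 123 and 175 in KO1, KO2 and KO3. The library labelled WT3 was thus near the knockout level of the deleted gene, against its label, while across the genes tested its log2 values correlated at 0.979 and 0.978 with WT1 and WT2 and at 0.891 to 0.941 with the knockout libraries (Pearson, genes are not replicates). Each knockout library correlated more with WT3 than with WT1 (0.848 to 0.911) or WT2 (0.849 to 0.916). For these reasons results that rest on the library labelled WT3 are given with and without it. Across the groups Nr3c1 fell (log2 change -2.03, SE 0.60, limma adjusted p = 0.0372), and a two-sided exact permutation test gave p = 0.1, the smallest that 3 against 3 libraries allow. Its call was lost in limma when any 1 of the other 5 libraries was left out (adjusted p = 0.0631 to 0.125).

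Of the 10 genes, 7 had at least 10 normalized reads in all 6 libraries and could be tested. Pyy, Insl5 and Cpe rose in the knockout libraries, none of the 7 fell, and Gcg, Tph1, Chga and Chgb did not pass the threshold of 0.05 for the adjusted p. Over all 12837 genes tested, 15.0% rose and 15.4% fell, which is the background for the count of 3 raised of 7 and for the counts of the other lists below. The genes and lists were chosen with earlier results of these data known, so these counts are a description and not a test. Without WT1 the shares of all genes were 7.56% and 7.42%, without WT2 7.77% and 7.5%, without the library labelled WT3 12.6% and 12.5%, and with each library scaled to epithelial markers 10.7% and 17.0%, and Pyy, Insl5 and Cpe rose in each of these fits. At an unadjusted p under 0.05 limma also lowered 0 of the 7, and edgeR and DESeq2 on the recovered reads each raised 3 and lowered 0, against 14.7% and 15.6% of all genes in edgeR and 16.7% and 15.7% in DESeq2. The median log2 change of the 7 was 0.46, against 0.01 over all genes tested. A log2 change is knockout minus wild type on the log2(value + 1) scale, which understates the change of low genes.

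**Figure D1:**
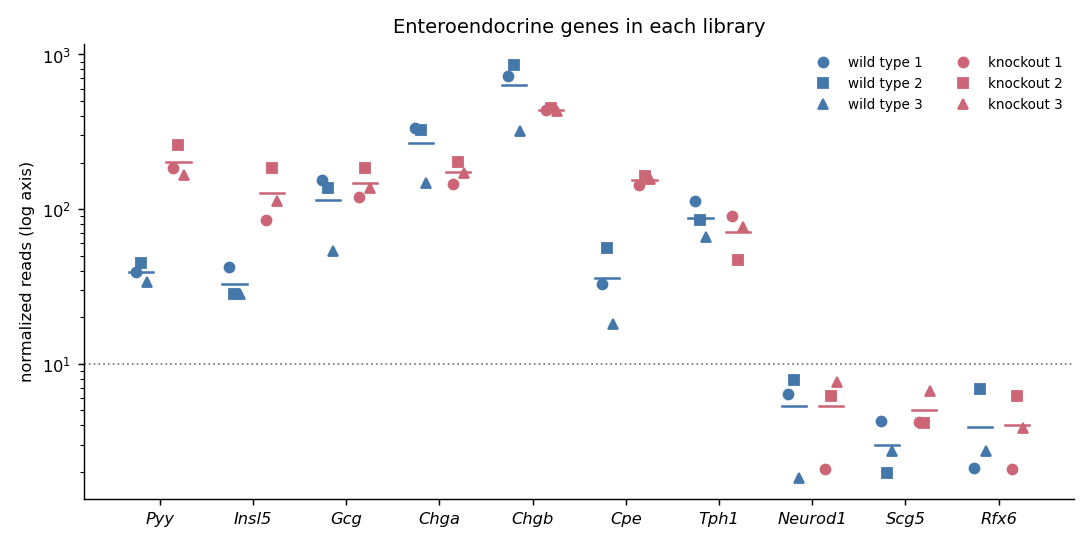
Normalized reads (log axis) of the 10 enteroendocrine genes in each of 6 libraries, wild type in blue and knockout in red, with a horizontal bar at each group mean; the dotted line marks 10 normalized reads, the least used in the test. Pyy, Insl5 and Cpe separate the groups, the other genes overlap, and Neurod1, Scg5 and Rfx6 lie below the line in every library.

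The windows around the transcription starts of the 3 L cell peptide genes are shown first. These genes are made by the same cells, and here Pyy and Insl5 passed the threshold while Gcg did not. Each window runs from 250 bases before to 50 after a RefSeq transcription start on GRCm38.p6, on the gene's own strand, and capitals mark the letters CAGATG, an E-box form bound by NeuroD1. Pyy lies on chromosome 11 (chr11:102107783-102108082, minus strand), Insl5 on chromosome 4 (chr4:103026679-103026978, minus strand) and Gcg on chromosome 2 (chr2:62483604-62483903, minus strand).
Pyy: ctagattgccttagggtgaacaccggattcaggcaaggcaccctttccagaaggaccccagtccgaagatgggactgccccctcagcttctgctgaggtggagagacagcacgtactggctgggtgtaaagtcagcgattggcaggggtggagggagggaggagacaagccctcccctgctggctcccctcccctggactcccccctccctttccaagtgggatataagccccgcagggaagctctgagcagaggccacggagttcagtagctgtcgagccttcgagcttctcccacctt
Insl5: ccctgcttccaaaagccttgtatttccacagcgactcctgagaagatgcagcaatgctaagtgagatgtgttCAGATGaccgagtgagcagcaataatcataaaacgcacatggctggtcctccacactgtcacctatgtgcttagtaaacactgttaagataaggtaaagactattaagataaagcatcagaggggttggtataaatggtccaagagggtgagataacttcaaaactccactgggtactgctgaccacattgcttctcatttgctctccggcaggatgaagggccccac
Gcg: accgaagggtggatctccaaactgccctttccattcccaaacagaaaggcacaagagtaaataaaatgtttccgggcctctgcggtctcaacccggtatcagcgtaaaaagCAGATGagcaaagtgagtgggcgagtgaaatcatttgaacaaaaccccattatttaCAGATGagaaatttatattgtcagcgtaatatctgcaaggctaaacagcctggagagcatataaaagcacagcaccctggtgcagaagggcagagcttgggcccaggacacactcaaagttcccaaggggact
On either strand, CAGATG was present once in the Insl5 window, starting 178 bases before the transcription start, and at 2 places in the Gcg window, 139 and 83 bases before it. The Pyy window held no match. Windows were found in RefSeq for 9 of the 10 genes, with Cpe missing, and 2 of the 9 (22.2%) held CAGATG, against 17.2% of all 32851 windows of this length. Pyy, Insl5 and Tph1 had 2 windows each, and the one nearest the gene's start in GENCODE was used. The transcription start of the Rfx6 window lay 7762 bases from the GENCODE start, that of Chgb 364 and the others 0 to 115. The palindromic glucocorticoid response element, AGAACA followed after 3 bases by its reverse complement, was in none of the 9 and in 0.00913% of all windows. The single arm AGAACA was in none of the 9 and in 19.0% of all windows, and the posterior Hox site CCAATAAA was in none of the 9 and in 1.12%. AGAACA is contained in the longer element, and the other letters do not overlap it. These are matches of letters within 300 bases and no more.

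Among the hormone genes, Pyy (Entrez 217212, GRCm38 chromosome 11, 102106676 to 102107832) had 39.3, 45.0 and 33.7 normalized reads in wild type and 183, 259 and 167 in knockout. Every knockout library was above every wild-type library, by a wide margin. Pyy rose from 39.3 ± 5.64 to 203 ± 48.9, a 5.16-fold difference of means (log2 change 2.32, SE 0.22, limma adjusted p = 0.000736). A separation of this kind, knockout above wild type without overlap, was seen for 25.2% of all genes tested.

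Insl5 (Entrez 23919, chromosome 4, 103017872 to 103026842), a relaxin-family peptide that is mostly restricted to L cells of the colon and rectum, had 42.5, 28.4 and 28.2 normalized reads in wild type and 84.9, 185 and 114 in knockout. The groups did not overlap, and KO2 was highest for both Insl5 and Pyy. Insl5 rose 3.87-fold, from 33.0 ± 8.18 to 128 ± 51.7 (log2 change 1.87 with an SE of 0.32, limma adjusted p = 0.00567).

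Gcg (Entrez 14526, chromosome 2, 62474530 to 62483650) had 154, 138 and 53.7 normalized reads in wild type and 121, 184 and 137 in knockout. The groups overlapped, and the low wild-type value was that of the library labelled replicate 3. The means were 115 ± 53.8 and 147 ± 33.1 (log2 change 0.46, 95% interval -0.44 to 1.37, limma adjusted p = 0.386). Without that library the log2 change was -0.01 (limma adjusted p = 0.978), so the direction of the Gcg difference rested on it.

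The makeup of the 3 L cell transcripts therefore differed between the libraries. Gcg was 65.3%, 65.3% and 46.5% of the summed normalized reads of Pyy, Insl5 and Gcg in wild type, and 31.0%, 29.3% and 32.7% in knockout. Pyy was 16.7%, 21.3% and 29.1% in wild type and 47.2%, 41.2% and 40.1% in knockout. Insl5 was 18.0%, 13.4% and 24.4% in wild type and 21.8%, 29.5% and 27.2% in knockout, with overlap. Divided by exon length, which puts genes on one scale, Gcg was 28.0% to 46.0% of the 3 in the wild-type libraries and 15.6% to 17.8% in knockout, and Pyy 27.8% to 41.6% and 51.6% to 59.5%.

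**Figure D2:**
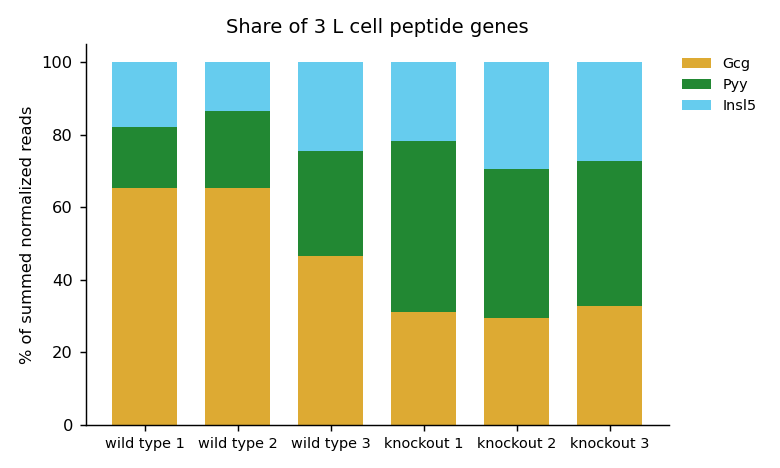
Share of Gcg, Pyy and Insl5 in their summed normalized reads (vertical axis, %) in each of the 6 libraries. Gcg takes 46.5% to 65.3% in the wild-type libraries and 29.3% to 32.7% in the knockout libraries.

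The log2 ratio of Pyy to Gcg was -1.94, -1.60 and -0.66 in wild type and 0.60, 0.49 and 0.29 in knockout, a difference of 1.86 with no overlap. The log2 ratio of Pyy to Chga was -3.06, -2.82 and -2.10 in wild type and 0.33, 0.35 and -0.03 in knockout, a difference of 2.87 with no overlap. The ratio of Tph1 to Chga, both made by enterochromaffin cells, differed by 0.22 and overlapped. Over the 3 ratios the two-sided exact permutation p was 0.1, 0.1 and 0.8, with adjusted values of 0.15, 0.15 and 0.8, and 0.1 is the smallest these libraries allow. No other test of the ratios was run.

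In the serotonin branch, Tph1 (Entrez 21990, chromosome 7, 46644641 to 46672537) had 113, 85.1 and 66.5 normalized reads in wild type and 90.2, 46.6 and 76.4 in knockout. The groups overlapped, and the means of 88.0 ± 23.2 and 71.0 ± 22.3 differed by less than 1 SD (log2 change -0.32, 95% interval -1.02 to 0.37, limma adjusted p = 0.431). Mast cells also express Tph1, and mast cell markers were mixed. Mcpt1 and Mcpt2, mast cell proteases, rose from 4.15 ± 2.91 to 95.1 ± 84.8 and from 1.94 ± 0.89 to 68.9 ± 46.5. Of 10 such markers 3 rose and 1 fell of 4 tested, against 15.0% and 15.4% of all genes tested. The fall was that of Kit, the most abundant of them in wild type, from 347 ± 98.6 to 70.6 ± 33.4, a receptor gene that other cells express too. In knockout the histidine decarboxylase gene Hdc was highest in mean, at 181 ± 169, against 7.54 over WT1 and WT2. Mcpt1, Mcpt2 and Hdc, the 3 that rose, could be tested only because their knockout values were high, so their count is no support. Ms4a2, a subunit gene of the mast cell IgE receptor, had no read in any library, and the list summed to 269 to 469 in wild type and 254.5 to 738 in knockout, with overlap. The part of mast cells in the Tph1 level was not tested.

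The granins are acidic proteins that pack hormones into granules and are general markers of endocrine cells. Chga (Entrez 12652, chromosome 12, 102554969 to 102565028) had 334, 323 and 148 normalized reads in wild type and 146, 203 and 171 in knockout. Chgb (Entrez 12653, chromosome 2, 132781278 to 132795079) had 722, 860 and 320 in wild type and 440, 448 and 429 in knockout. For both genes WT1 and WT2 were above all knockout libraries, and the library labelled WT3 lay among or below them. Neither passed the threshold with all 6 libraries (log2 change -0.55 for Chga, limma adjusted p = 0.211, and -0.41 for Chgb, limma adjusted p = 0.366). Without the library labelled WT3, both fell, with log2 changes of -0.93 (SE 0.18, limma adjusted p = 0.0147) and -0.84 (SE 0.13, limma adjusted p = 0.00782), and 12.5% of all genes tested then fell.

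The 3 knockout libraries lay within 440, 448 and 429 for Chgb, an SD of 9.75, whereas the wild-type SD was 281. Gcg, Chga and Chgb were each lowest of the wild-type libraries in the library with little Nr3c1 RNA, as were Pyy, Cpe and Tph1. Insl5 was lowest there too, but narrowly, at 28.2 against 28.4 in WT2. The 10 genes summed to 675 normalized reads in that library and to 1450 and 1551 in WT1 and WT2. The part of that library's Nr3c1 level in these values was not tested.

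Cpe (Entrez 12876, chromosome 8, 64592542 to 64693054) had 32.9, 55.7 and 18.2 normalized reads in wild type and 144, 165 and 158 in knockout. The groups did not overlap, and the knockout values were close together. Cpe rose 4.36-fold, from 35.6 ± 18.9 to 155 ± 10.6 (log2 change 2.23 with an SE of 0.36, limma adjusted p = 0.00490). Without the library labelled WT3 the log2 change was 1.83 (limma adjusted p = 0.00567).

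Scg5, which encodes the 7B2 chaperone of prohormone convertase 2, had 4, 2 and 3 reads in wild type and 4, 4 and 7 in knockout. Neurod1, a transcription factor of endocrine differentiation, had 6, 8 and 2 reads in wild type and 2, 6 and 8 in knockout. Rfx6, a transcription factor of endocrine progenitors and mature cells, had 2, 7 and 3 and 2, 6 and 4. All 3 fell short of the minimum for testing, and each overlapped between the groups. In a fit without that minimum their limma adjusted p was 0.325, 0.986 and 0.930, and differences at such read numbers were not detectable at this depth. Neurod1 shares 201 exon bases with Cerkl on its own strand and 154 with Gm26755 on the other, so its few reads may be shared, while GENCODE lists no shared exon for the other 9 genes.

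**Figure D3:**
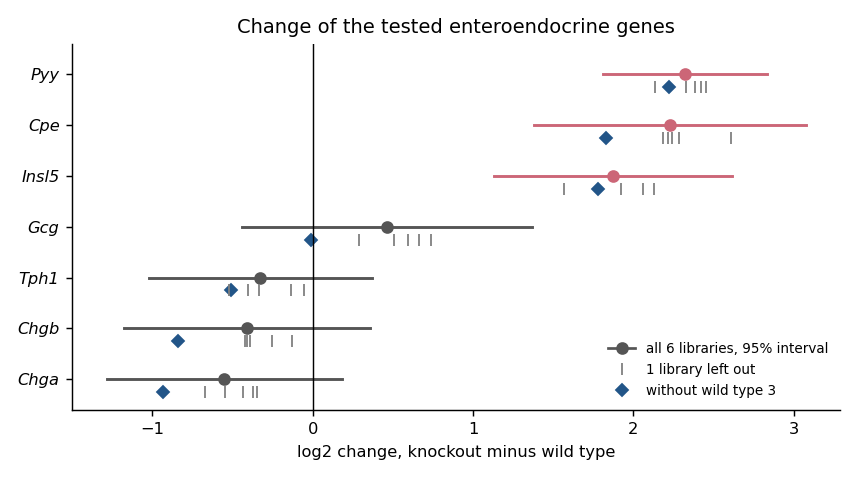
Log2 change (horizontal axis, knockout minus wild type) of the 7 tested genes, with the limma 95% interval over all 6 libraries, grey ticks for fits with 1 library left out and a blue diamond for the fit without WT3. Pyy, Cpe and Insl5 stay above 1.5 in all these fits, whereas Gcg moves to -0.01 and Chga and Chgb to -0.93 and -0.84 at the diamond.

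Per kilobase of exon, the wild-type order of mean levels was Chgb (231 ± 102 normalized reads per kb), Chga (97.3 ± 38.0), Gcg (77.1 ± 36.0), Pyy (62.3 ± 8.94), Insl5 (45.6 ± 11.3), Tph1 (14.3 ± 3.75), Cpe (13.7 ± 7.25), and then Neurod1, Scg5 and Rfx6 at 1.96, 1.90 and 0.97. Neighbours from Chgb to Insl5 overlapped within 1 SD of each mean, as did Tph1 with Cpe, and Insl5 was above Tph1 beyond that spread. In knockout the order was Pyy (322 ± 77.4), Insl5 (177 ± 71.4), Chgb (160 ± 3.56), Gcg (98.4 ± 22.2), Chga (62.8 ± 10.4), Cpe (59.5 ± 4.08), Tph1 (11.5 ± 3.61), and then Scg5, Neurod1 and Rfx6 at 3.19, 1.95 and 1.01. Pyy and Insl5 overlapped within 1 SD there, as did Insl5 with Chgb and Chga with Cpe. Pyy thus stood at rank 4 per kilobase in wild type and at rank 1 in knockout.

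Of 14 other gut hormone genes 4 were tested, 1 rose and 1 fell, against 15.0% and 15.4% of all genes tested. Tac1, the precursor of substance P, which enterochromaffin cells and enteric neurons make, had 14.9, 43.0 and 30.1 normalized reads in wild type and 353, 133 and 280 in knockout. It rose 8.72-fold from 29.3 ± 14.1 to 255 ± 112 (log2 change of 3.09 with an SE of 0.46, limma adjusted p = 0.00364), a larger estimate than that of Pyy, a difference that was not tested. Sct, the secretin gene, was lower at 56.6 ± 19.4 than the wild-type 130 ± 54.2 and fell by a log2 change of -1.17 (limma adjusted p = 0.0485). The Sct call was lost in 6 of 15 other settings (limma adjusted p = 0.0508 to 0.153): without the minimum level, with a minimum of 50, and without WT1 (log2 change -1.19), WT2 (-0.86), KO2 (-1.30) or KO3 (-0.85). Gip, Npw and Gast had no read in any library, which allows up to 3 reads per library. Cck, Sst and Ghrl, hormones of other enteroendocrine cells, were present but too low to test.

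Neuronal markers, which bear on Tac1, Cpe and the granins, were at or near 0. None of 14 reached the minimum for testing, Vip, Nos1 and Gap43 were among those with no read at all, and the whole list summed to 9.1 to 11.7 normalized reads in wild type and 19.9 to 24.8 in knockout. Nefm, a neurofilament gene, had the highest mean. Of 6 glial markers none was tested, Sox10 and Gfap had no read, and the list summed to 2.1 to 10.8 and 4.8 to 6.2. Both groups of neuronal sums were apart, with knockout higher, and the part of neurons in the Tac1 and Cpe values was not tested.

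In the list of 20 other granule and processing genes, 3 of 10 tested fell and none rose, against 15.4% and 15.0% of all genes tested. At an unadjusted p under 0.05 limma put 1 higher and 6 lower, and edgeR and DESeq2 each lowered 3 and raised 0. Pcsk1, the prohormone convertase that cuts proglucagon in L cells, had 138, 168 and 76.5 normalized reads in wild type and 19.9, 35.2 and 26.7 in knockout. No value overlapped, and Pcsk1 fell from 128 ± 46.7 to 27.3 ± 7.65, a 4.68-fold lower mean (log2 change -2.15 with an SE of 0.34, limma adjusted p = 0.00447). Pcsk1 thus went opposite to Cpe, the enzyme that acts after it. Pcsk2, the other prohormone convertase, had no read in any library.

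Ptprn2, a transmembrane protein of dense-core vesicles, fell from 364 ± 77.2 to 162 ± 16.0, and Syt7, a calcium sensor of exocytosis, from 434 ± 27.4 to 274 ± 22.1 (limma adjusted p = 0.00413 and 0.00686). Pcsk1n, which encodes proSAAS, an inhibitor of Pcsk1, was 6.63 ± 1.98 and 14.3 ± 3.66 and did not pass (limma adjusted p = 0.0857). Pam, the enzyme that amidates peptides such as PYY, was 965 ± 245 and 1330 ± 283 (limma adjusted p = 0.119), and without the library labelled WT3 it rose (log2 change 0.67, limma adjusted p = 0.0399). The median log2 change of the 10 tested genes was -0.43.

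**Figure D4:**
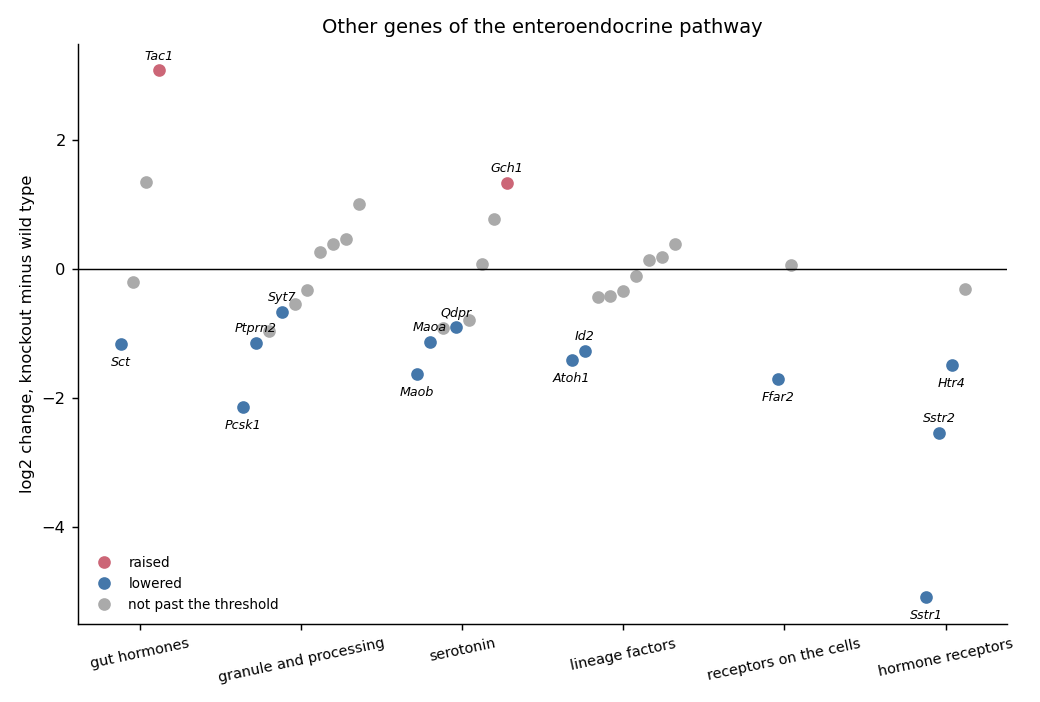
Log2 change (vertical axis, knockout minus wild type) of every tested gene in 6 other lists of the enteroendocrine pathway, red where raised, blue where lowered and grey where the threshold was not passed. Tac1 and Gch1 are the genes raised, and Sstr1 lies lowest at -5.10.

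Of 10 other serotonin genes, 8 were tested, 1 rose and 3 fell, against 15.0% and 15.4% of all genes tested. Their median log2 change was -0.84. Gch1, which makes the cofactor precursor that Tph1 needs, rose from 383 ± 14.8 to 980 ± 160 (limma adjusted p = 0.000958). Qdpr, which regenerates that cofactor, fell from 1102 ± 183 to 584 ± 57.8 (limma adjusted p = 0.00506). Maoa and Maob, the monoamine oxidases that break serotonin down and are made in absorptive cells too, fell from 13693 ± 1749 to 6786 ± 3495 and from 403 ± 49.97 to 148 ± 88.1 (limma adjusted p = 0.0393 and 0.0259). The Maoa call was lost with edgeR (adjusted p = 0.0552) and without any 1 library other than KO2, and the Maob call without any 1 wild-type library or KO3 (limma adjusted p = 0.0564 to 0.123 for both). Slc18a1, the vesicular transporter of enterochromaffin cells, was 27.9 ± 10.9 and 48.0 ± 15.8, and Ddc, the second enzyme of serotonin synthesis, 652 ± 71.1 and 423 ± 240 (limma adjusted p = 0.139 and 0.147).

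Of 19 other transcription factors of the lineage, 9 were tested, 2 fell and none rose, against 15.4% and 15.0% of all genes tested. At an unadjusted p under 0.05 limma put 1 higher and 3 lower, and edgeR and DESeq2 each raised 0 and lowered 2. Hes1, a Notch target, rose in limma with library weights and without KO1. Foxa1, at 1132 ± 110 and 847 ± 126, did not pass in the main fit (limma adjusted p = 0.0557). It fell in limma with scaling to epithelial markers, with library weights and without KO3. Id2, an inhibitor of helix-loop-helix factors, fell from 287 ± 37.0 to 120 ± 27.0 (limma adjusted p = 0.00460). Atoh1, which commits cells to the secretory lineages, fell from 401 ± 148 to 151 ± 66.2 (log2 change -1.42, limma adjusted p = 0.0264), a call lost without WT1, WT2 or KO3 (limma adjusted p = 0.0699 to 0.0945). Neurog3, which marks endocrine progenitors, was 17.2 ± 8.82 and 12.5 ± 4.69 (limma adjusted p = 0.622), and Insm1 was 8.84 ± 3.40 and 8.37 ± 3.67 (limma adjusted p = 0.875). The median log2 change was -0.34.

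Receptors through which enteroendocrine cells sense nutrients were mostly too low to test: 17 of 19 fell short, and Gpr142 had no read. Ffar2, a receptor for short-chain fatty acids that immune and other epithelial cells share, fell from 160 ± 59.1 to 50.3 ± 23.7 (log2 change -1.71, limma adjusted p = 0.0257). That call was lost without WT1 or WT2 (limma adjusted p = 0.0892 and 0.0942). Ffar4, a long-chain fatty acid receptor, was 232 ± 50.8 and 242 ± 45.4 (limma adjusted p = 0.837).

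Of 14 receptor genes for gut hormones and serotonin, 4 were tested and 3 fell, against 15.4% of all genes tested. Sstr1, a somatostatin receptor, had 753, 333 and 343 normalized reads in wild type and 5.24, 29.0 and 10.5 in knockout. It fell by a log2 change of -5.10 (SE 0.57, limma adjusted p = 0.00133), far beyond the spread of either group. Sstr2, another somatostatin receptor, fell from 21.8 ± 9.73 to 2.69 ± 0.53 and the serotonin receptor gene Htr4 from 103 ± 22.0 to 37.8 ± 14.8 (limma adjusted p = 0.00660 and 0.0154), the latter not past the threshold without WT1 (limma adjusted p = 0.0665). Sstr2 had 2, 3 and 3 reads in knockout and reached the minimum for testing only through the wild-type libraries. Its place among the 3 that fell is therefore no support for that count. Npy1r, a receptor for peptide YY, was 33.0 ± 7.73 and 27.5 ± 12.5 (limma adjusted p = 0.521), and Npy4r, Gcgr, Htr2a and Htr3a had no read. Rxfp4, the INSL5 receptor, had too few reads to test.

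Pyy and Insl5 are more abundant toward the distal colon, and some Hox genes of the distal colon moved with the groups. Of 7 such genes 5 were tested and 2 rose (1 with scaling to epithelial markers, 4 with library weights), against 15.0% of all genes tested. Hoxd11 and Hoxa11 had log2 changes of 1.01 and 0.16 and did not pass (limma adjusted p = 0.0569 and 0.675). Without the library labelled WT3, Hoxd11 passed (log2 change 1.23, limma adjusted p = 0.0496). Hoxd13 had 54.1, 58.7 and 105 normalized reads in wild type and 166, 276 and 216 in knockout (log2 change 1.62, SE 0.29, limma adjusted p = 0.00713). Hoxa13 had 88.1, 67.5 and 107 in wild type and 117, 276 and 170 in knockout (limma adjusted p = 0.0441). The Hoxa13 call was lost with scaling to epithelial markers and without any 1 library other than KO1 (limma adjusted p = 0.0536 to 0.140). Hoxb13, the most abundant, was 840, 881 and 1566 in wild type and 993, 2984 and 2223 in knockout, with overlap (limma adjusted p = 0.153). The list summed to 1078 to 1923 and 1375 to 3690. Knockout replicate 2, the library highest in Pyy, Insl5 and Gcg, was also highest in Hoxb13, Hoxa13 and Hoxd13, whereas the library labelled WT3 was highest of its group in these 3 Hox genes and lowest in Pyy and Gcg. The part of colon position in the hormone values was not tested.

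**Figure D5:**
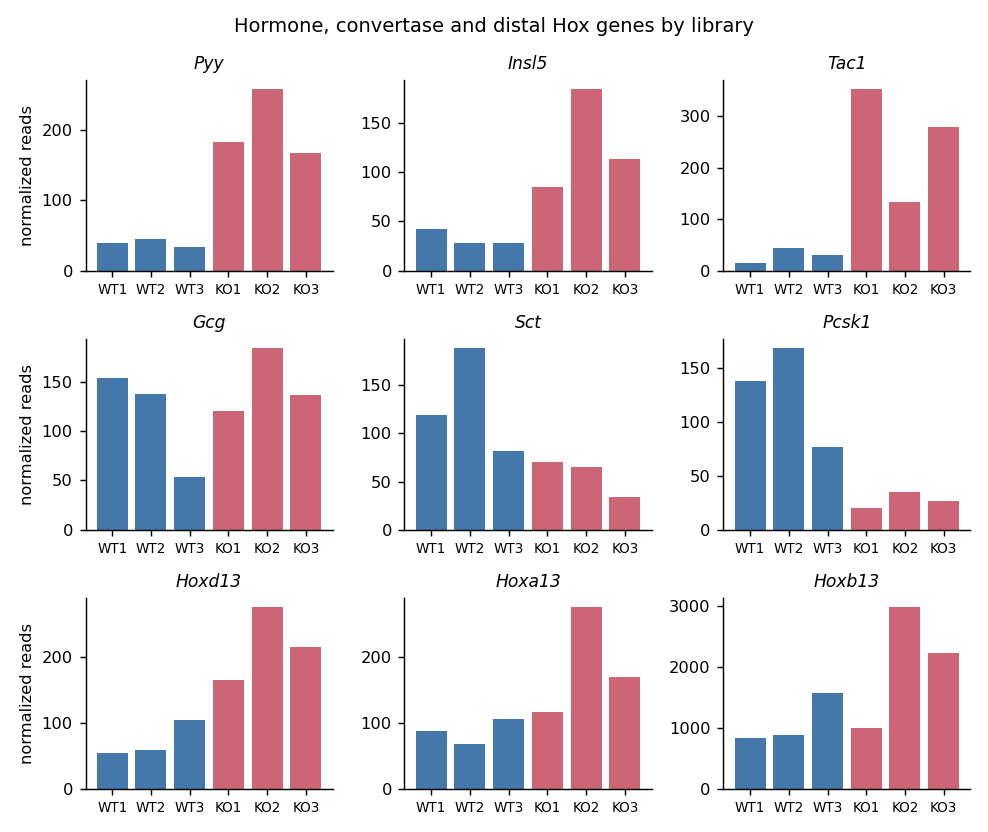
Normalized reads (vertical axes, each from 0) of 9 genes in the wild-type (WT, blue) and knockout (KO, red) libraries numbered by replicate. Pyy, Insl5, Tac1, Hoxd13 and Hoxa13 are higher in all 3 knockout libraries, Sct and Pcsk1 lower, and Gcg and Hoxb13 overlap.

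Immune markers also moved with the groups, whereas stromal markers were mixed. Over all genes tested 15.0% rose and 15.4% fell. Of 13 immune markers 9 were tested and 8 rose, with S100a8, a neutrophil calprotectin subunit, highest in mean in knockout (15.6 ± 4.52 in wild type and 1227 ± 801 in knockout) and Lyz2, a lysozyme of myeloid cells, in wild type (430 ± 170 and 764 ± 399, not past the threshold). The list summed to 445 to 931 normalized reads in wild type and 2358 to 6717 in knockout. Of 12 stromal markers 8 were tested and 2 rose, Vim and Dcn, the latter not past the threshold without WT1, WT2, KO1 or KO3 (limma adjusted p = 0.0732 to 0.113). Without KO2 the count was 4. Without the library labelled WT3 it was 3, against 12.6% of all genes tested, and Col3a1 then passed (log2 change 2.54, limma adjusted p = 0.0456). The median log2 change of the stromal markers tested was 1.33. Pdgfrb, Pecam1 and Acta2 had changes of -1.01, -1.11 and -0.10, not past the threshold (limma adjusted p = 0.118, 0.0550 and 0.590). The list had sums of 674 to 1248 and 975 to 2920, and Acta2, a smooth muscle actin, was highest in mean. In KO2, where Cpe was highest at 165, the stromal sum of 975 lay within the wild-type range, whereas Vim at 157 and Dcn at 78.6 were above every wild-type library. Immune markers summed highest in KO1, whereas Pyy and Insl5 were highest in KO2. In bulk RNA a changed number of enteroendocrine cells and changed RNA per cell cannot be told apart, and the part of other cells in these differences was not tested.

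Other epithelial cell types gave mixed counts. Of 8 tuft cell markers 3 were tested, 2 rose and Trpm5, the taste-pathway channel, fell, with Avil highest in mean and sums of 54.6 to 83.1 and 147 to 324. The Trpm5 call was lost without WT1, WT2, KO2 or KO3 (limma adjusted p = 0.0585 to 0.0936). Of 8 goblet cell markers 1 fell (2 in DESeq2, without the library labelled WT3 or without KO2) and 0 rose (1 in DESeq2, with library weights, without WT2 or without KO1, and at an unadjusted p under 0.05 in limma, but 0 in edgeR). The fall was that of the mucin gene Muc2, from 28352 ± 8880 to 9662 ± 1363, with list sums of 81744 to 86069 and 47217 to 78404. Muc2 was the most abundant of them in wild type and Fcgbp, a mucus protein, in knockout, at 20127 ± 5276. Of the 8 epithelial markers Vil1, the villin gene, rose from 10075 ± 490 to 15195 ± 1038 (limma adjusted p = 0.0134, and 0.0643 and 0.0671 without WT1 or WT2), while the list summed to 250121 to 289967 and 258456 to 292459. With each library scaled to these 8 markers, Pyy, Insl5 and Cpe stayed raised, with log2 changes of 2.20, 1.75 and 2.10.

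The genes outside the 10 whose log2 values most resembled Pyy over the 6 libraries were Tmem184c, Lcn2, Gm16973, Dffa and Sh3bp5l, with Pearson correlations of 0.993 to 0.994. These points share 2 groups of 3 libraries, so any gene that differs by genotype in this way scores high. Tmem184c went from 16.6 ± 2.55 to 142 ± 20.7 and Lcn2, an iron-binding protein of innate defence, from 2.64 ± 2.04 to 181 ± 140 (limma adjusted p = 0.000322 and 0.00149). Gm16973 and Dffa differed by far less, at 27.1 ± 1.09 and 40.2 ± 1.72 and at 258 ± 3.21 and 314 ± 10.7, and did not pass the threshold (limma adjusted p = 0.0841 and 0.0854).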

How the data were processed

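The deposited signal is a count per gene scaled by the authors with DESeq2 size factors, as the submitters' processing notes and the values show. FastQC, TopHat and the build mm10 are also named there, without versions. The read counter is not given in the sources used here. Libraries were non-stranded per the labels' protocols. All values came out as whole reads within 0.001 of a step (100% in each library), which gave 10089313 to 12030844 recovered reads per library. Entrez numbers were matched to symbols in RefSeq on GRCm38.p6 (23666 of 23725 rows), and exon lengths and gene coordinates are from GENCODE on GRCm38.

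Differences were tested with limma 3.58.1 (R 4.3.3, with a trended prior variance), run on log2(value + 1) over 12837 genes with at least 10 normalized reads in at least 3 libraries, with Benjamini-Hochberg adjustment over all of them and a threshold of 0.05. Unless edgeR or DESeq2 is named, an adjusted p comes from limma. Confidence intervals are limma's 95% intervals. Ratios were tested with two-sided exact permutation tests. Alternatives were pseudocounts of 0.5 and 5, no minimum or a minimum of 50, TMM scaling, scaling to 8 epithelial markers, library weights, edgeR 4.0.16 and DESeq2 1.42.0 on recovered reads, and leaving out each library. The limma, edgeR and DESeq2 steps were tested on simulated data.

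The 10 genes and all lists were chosen with earlier results of these data known. Named from the other pathway lists are called genes, at most 4 by smallest adjusted p, and from marker lists the most abundant gene and those without a read, plus the 5 genes most correlated with Pyy. Other genes named (among them Cck, Sst, Ghrl, Pcsk1n, Pam, Slc18a1, Ddc, Neurog3, Insm1, Hes1, Ffar4, Npy1r, Rxfp4, Mcpt1, Mcpt2, Hoxa13, Hoxd13, Hdc, Lyz2, Trpm5, Muc2, Vim, Dcn and Vil1) were chosen after their values were seen. Ighm and Sh2d6 were not analysed here, and some marker genes are not reported here. Libraries of the same group differed beyond counting noise (chi-square 14.2 to 53.9 per degree of freedom), and a count of 0 is given with an upper limit of 3 reads for counting error only.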

Additional observations from a re-analysis of the deposited data

How the results depend on the processing

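The rises of Pyy, Insl5 and Cpe passed the threshold in all 15 alternatives, with log2 changes of 2.14 to 2.45, 1.57 to 2.13 and 1.83 to 2.61, and the count raised was 3 in each. The count lowered was 0 to 2 with 1 library left out, the 2 being Chga and Chgb without the library labelled wild type replicate 3 (log2 changes -0.93 and -0.84), where Gcg turned to -0.00919 (range with 1 library left out -0.00919 to 0.74). In the other 14 alternatives neither granin passed, and Gcg and Tph1 passed in none of the 15. Over all genes 1931 rose and 1979 fell, and with 1 library left out 970 to 1782 rose and 953 to 1825 fell, fewest without wild type replicate 1 (970 and 953) or wild type replicate 2 (997 and 963). Scaling to epithelial markers moved the median of all genes to -0.117, with 1368 raised and 2178 lowered. The Nr3c1 change was -2.82 to -1.57 with 1 library left out and passed only without wild type replicate 3. The Tph1 to Chga log2 ratio difference of 0.22 was -0.0881 without knockout replicate 1 and ranged over the libraries left out from -0.0881 to 0.62, while the Pyy to Gcg and Pyy to Chga differences kept their sign in the 8 alternatives run for ratios (both pseudocounts and each library left out). The causes were not tested. Depth limits Neurod1, Scg5 and Rfx6, with at most 8 reads per library. No paired analysis was possible because the labels give no replicate numbers shared between the groups, the numbers used here being names given within each group.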
